A study of Mus musculus with 3 samples.

Results

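A group of 9 DNA-binding or dimerising regulators is described here in 3 mouse mammary tumours: the Sox factors Sox2, Sox4, Sox9, Sox10 and Sox11 and the Id proteins Id1, Id2, Id3 and Id4. The members were chosen by name, as every probe set (a group of probes for 1 transcript, summarised into 1 value) that the platform annotation pairs with exactly 1 of these 9 genes. This gave 21 probe sets out of the 22626 that are not controls, and 9 of the 12393 genes named on the array. Of the 21 probe sets, 13 belonged to Sox genes and 8 to Id genes, and 0 named a member together with another gene. The group was selected on earlier results of the same tumours, in which Sox2 stood apart, so every value of the members is a description and no p-value is given.

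Each array held total RNA of 1 mammary tumour from a female NMRI mouse. All 3 animals carried the WAP-SVT/t transgene. The control region of Wap, a whey protein gene active in the differentiating mammary gland, limits its T and t antigens of simian virus 40 to mammary epithelium. The study set mouse tumours beside human breast tumours, and here only the 3 mouse tumours were analysed, without normal gland. The titles of tumours 1 and 2 share the leading number 585 and that of tumour 3 has 597. Whether tumours 1 and 2 came from 1 animal is not given in the sources used here, and neither are the ages of the animals.

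Sox factors bind DNA through a high-mobility-group box and bend it. Sox2 is known from pluripotent and neural stem cells, Sox9 from cartilage and from ductal and luminal progenitor cells, and Sox10 from neural crest, Schwann cells and mammary progenitor cells. Id proteins have a helix-loop-helix domain without the basic region that contacts DNA. They pair with E proteins such as Tcf3 and keep them off their E-box sites, and their genes are classic targets of bone morphogenetic protein (BMP) signalling through Smad proteins.

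The RefSeq promoter table (GRCm38.p6) listed 6 of the 9 members. Of these 6, 3 had a probe set at least 2-fold apart between tumours, and their promoters are shown because those differences are the ones described below. Each window runs from 250 bases before to 50 bases after the annotated start, 5′ to 3′. Capitals mark matches, on either strand, to the Sox core motifs ACAAAG and ACAATG, to the E-box CANNTG and to the CCAAT box.
Sox2, chr3:34649745-34650044, plus strand: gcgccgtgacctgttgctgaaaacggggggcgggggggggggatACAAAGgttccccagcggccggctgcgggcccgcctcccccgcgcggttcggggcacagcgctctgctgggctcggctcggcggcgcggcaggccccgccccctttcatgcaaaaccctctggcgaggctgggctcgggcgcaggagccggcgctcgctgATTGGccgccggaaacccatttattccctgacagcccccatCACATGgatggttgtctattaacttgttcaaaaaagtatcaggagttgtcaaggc
Sox4, chr13:28953650-28953949, minus strand: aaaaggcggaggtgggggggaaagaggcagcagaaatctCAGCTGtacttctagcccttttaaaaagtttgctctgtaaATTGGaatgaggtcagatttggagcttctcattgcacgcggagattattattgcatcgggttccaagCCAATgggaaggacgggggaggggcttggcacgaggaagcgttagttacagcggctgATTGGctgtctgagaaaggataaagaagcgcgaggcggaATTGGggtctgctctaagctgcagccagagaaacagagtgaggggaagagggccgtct
Id2, chr12:25096043-25096342, minus strand: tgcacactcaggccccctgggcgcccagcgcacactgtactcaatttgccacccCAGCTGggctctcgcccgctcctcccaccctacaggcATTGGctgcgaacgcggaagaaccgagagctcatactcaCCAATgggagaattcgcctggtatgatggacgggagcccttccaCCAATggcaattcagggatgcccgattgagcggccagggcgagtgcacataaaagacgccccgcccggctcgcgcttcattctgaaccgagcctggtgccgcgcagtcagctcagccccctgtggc

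The Sox2 window held 1 match to ACAAAG, 1 E-box and 1 CCAAT box. The Sox4 window held 1 E-box and 4 CCAAT boxes, and the Id2 window held 1 E-box and 3 CCAAT boxes. None of the capitals from different motifs overlap in these 3 windows. Among all 32851 windows of this length in the table, ACAAAG matched in 18.7%, ACAATG in 12.6%, the E-box in 72.3% and the CCAAT box in 37.4%. A match is a stretch of letters and shows no binding.

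Levels are given as log2(intensity + 50), with the arrays quantile normalized beforehand. Folds are antilogs of differences between levels, and the offset makes them too small for dim probe sets. A probe set is said to be past the floor when its mean over the tumours reached 7.40, the median of all probe sets, which corresponds to an intensity of 119. Levels of different probe sets cannot be ranked against each other, since each has its own probes. Median intensities of the arrays were 111, 120 and 114. The array of tumour 3 stood apart in its control probe sets for 18S ribosomal RNA. Their 3′ part read 2697, 1833 and 7147 in tumours 1, 2 and 3, the middle part 9856, 9311 and 400, and the 5′ part 5398, 4615 and 563, so the 3′ signal exceeded the 5′ signal in tumour 3 and lay below it in tumours 1 and 2. For Gapdh and beta-actin the ratio of 3′ to 5′ signal, a sign of RNA integrity, lay between 0.81 and 1.26 in all 3 arrays. All 7 markers of luminal epithelium were past the floor, and 3 of them were at least 2-fold apart (24.8% of all genes past the floor). The keratin gene Krt18 differed least, with intensities of 6457, 6414 and 6145. The claudin gene Cldn4 differed most, with 1788, 669 and 111, an 11.7-fold range, and the keratin gene Krt19 had 1590, 803 and 454, a 3.29-fold range. Both were lowest in tumour 3. The claudin gene Cldn3 was lowest in tumour 2, with 3832, 1408 and 2204. The cadherin gene Cdh1 was highest in tumour 3, with 1313, 1403 and 2793, and Epcam was lowest in tumour 1, with 4156, 6060 and 6050. Of the 7 markers, 4 were lowest in tumour 3 (44.2% of all genes past the floor), 2 in tumour 1 and 1 in tumour 2. In bulk tumours, fewer cells of a type and less RNA per cell cannot be told apart.

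**Figure D1:**
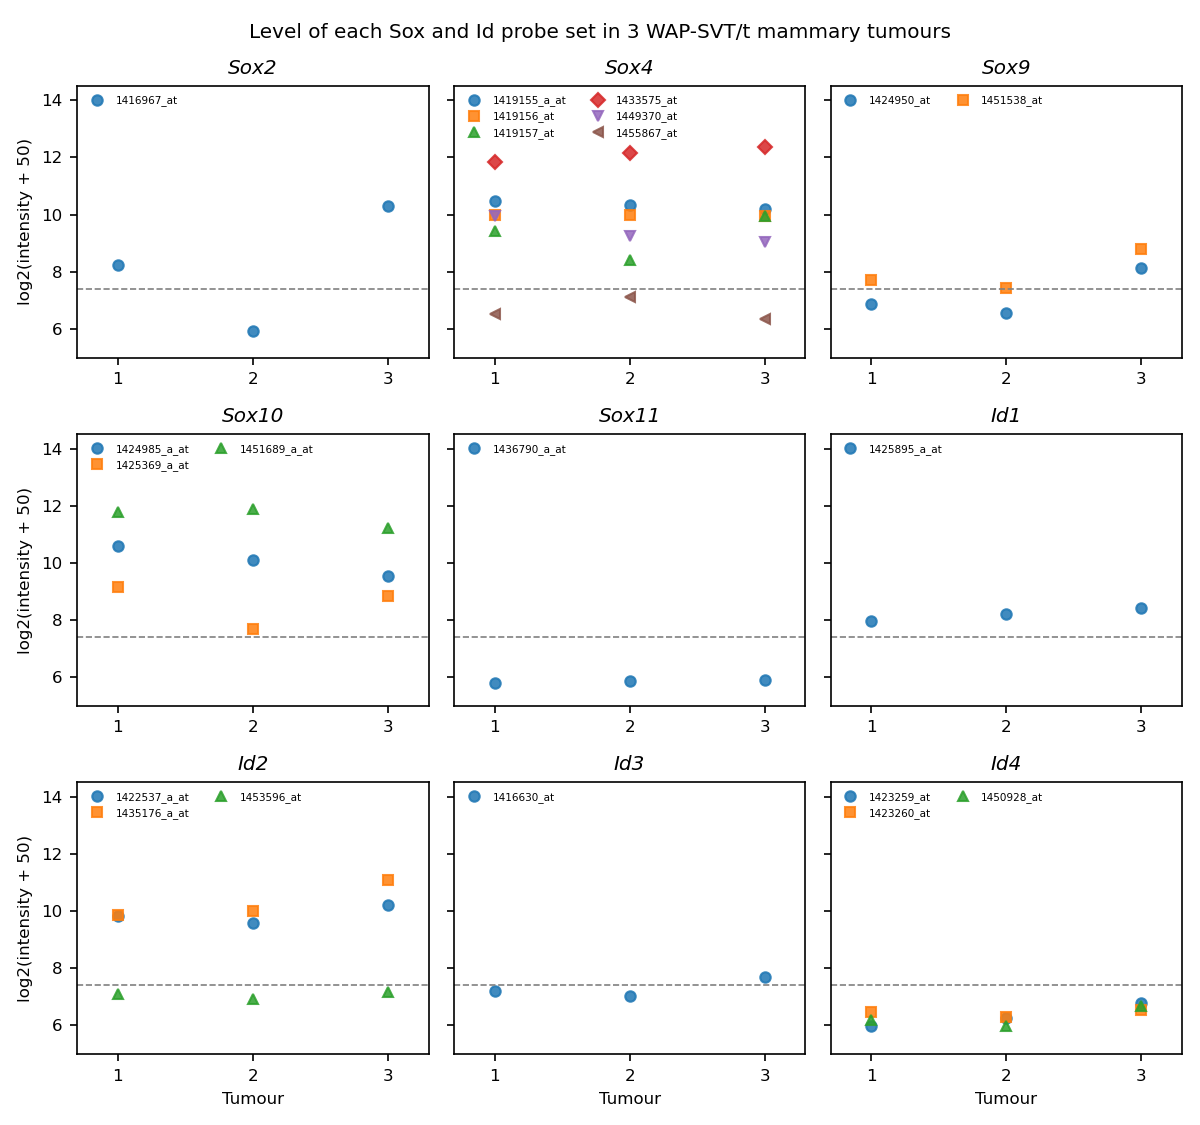
Level of each of the 21 member probe sets, log2(intensity + 50), in tumours 1, 2 and 3, with 1 panel per gene, 1 symbol per probe set and the floor of 7.40 as a dashed line. Sox2 spans 5.92 to 10.31, whereas Sox11 and the 3 Id4 probe sets lie below the floor in every tumour.

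Of the 21 member probe sets, 13 from 6 genes were past the floor. In 6 of these 13 the tumours spanned a 2-fold range or more, those of Sox2, Sox4, Sox9, Sox10 (2 probe sets) and Id2. Among all 10434 probe sets with 1 gene past the floor, 26.8% differed that much. The median range over the tumours was 0.90 (log2) for the 13 and 0.68 for all 10434. The 13 were neither independent nor chosen without results in view, so the difference in shares is no finding about the group. The Sox10 probe set 1424985_a_at lay just inside the 2-fold line with a range of 1.06, and the Sox4 probe set 1449370_at just outside it with 0.90. Just past the floor was the Sox9 probe set 1451538_at with a mean of 7.98, and just below it was Id3 with 7.32.

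The pair of tumours that differed most was 2 and 3. At least 2-fold differences were found in 5 of the 13 probe sets between tumours 2 and 3, where 18.0% of all probe sets past the floor differed that much. Between tumours 1 and 3 there were 4, against 14.3% of all probe sets. Between tumours 1 and 2 there were 3, from Sox2, Sox4 and Sox10, against 7.90%. Of these pair differences, that of Sox4 (1419157_at) between tumours 1 and 2 fell from 1.03 (log2) to 0.94 with no normalization and 0.93 with an offset of 100, below 2-fold. With an offset of 100 the calls of Sox9 (1451538_at) between tumours 1 and 3 and of Sox10 (1425369_a_at) between tumours 2 and 3 were lost too, at -0.95 and -0.99. Of the 13, 7 were highest in tumour 3 (36.5% of all probe sets past the floor) while 5 were lowest in tumour 2 (31.8%), 5 in tumour 3 (38.9%) and 3 in tumour 1.

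**Figure D2:**
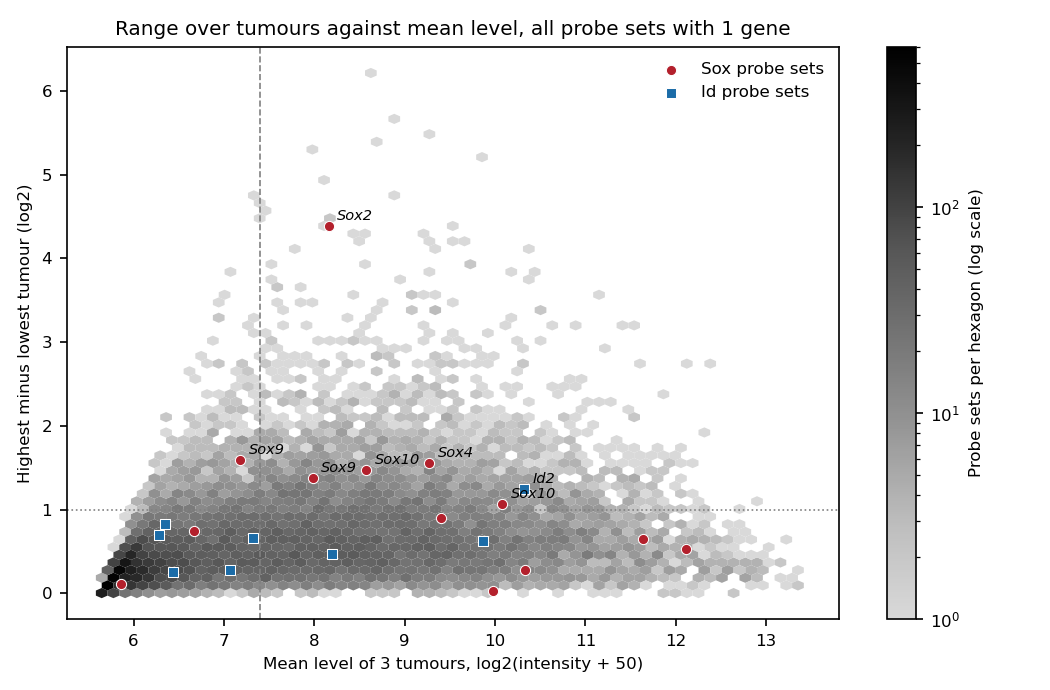
Highest minus lowest tumour (log2) against the mean level of the 3 tumours for all 20380 probe sets with 1 gene, shaded by number on a log scale, with Sox probe sets as red circles and Id probe sets as blue squares. The dashed line is the floor of 7.40 and the dotted line a 2-fold range, and Sox2 stands at 4.38 while the Id probe sets reach at most 1.24.

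Sox2 differed most among the members. Its only probe set, 1416967_at, measured 249, 11 and 1255 intensity units in tumours 1, 2 and 3. Tumour 3 was highest, tumour 1 intermediate, and tumour 2 lay near the bottom of the scale. The corresponding levels were 8.25, 5.92 and 10.31, or 8.16 ± 2.19 (SD, n = 3). Tumour 3 was 20.9-fold above tumour 2 and 4.15-fold above tumour 1, and tumour 2 was 5.03-fold below tumour 1. Of the 3 tumours, 1 and 3 were above the floor for Sox2. With an offset of 16 in place of 50 the range was 5.53 (log2), and with 100 it was 3.57.

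The genes beside Sox2 on chromosome 3 did not share its range. Of the 4 genes on the array to each side of it, 6 were past the floor and their ranges were 0.20 to 1.02 (log2). These neighbours were looked up after the Sox2 values were known. The nearest, Fxr1, an RNA-binding protein gene 630 kb away, was at 9.78, 9.91 and 9.46 in tumours 1, 2 and 3. Atp11b, a phospholipid flippase gene on the other side, was at 9.06, 9.62 and 9.15. Both were highest in tumour 2, where Sox2 was lowest. Dcun1d1, a cullin neddylation gene, had the order of Sox2, with 8.15, 7.71 and 8.74, a 2.03-fold range.

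**Figure D3:**
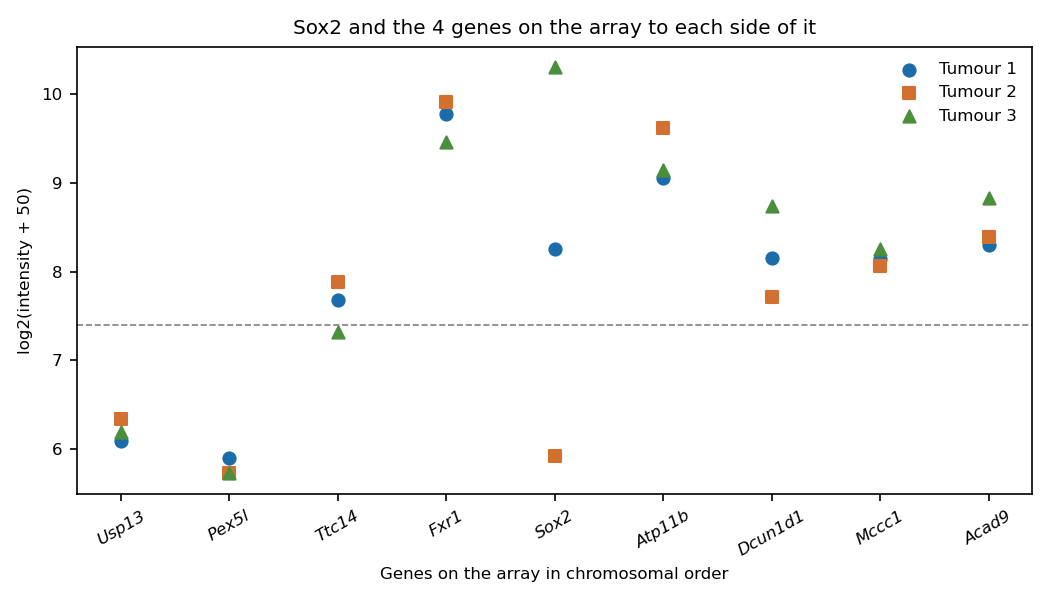
Level, log2(intensity + 50), of Sox2 and of the 4 genes on the array to each side of it in chromosomal order, with tumour 1 as circles, tumour 2 as squares, tumour 3 as triangles and the floor of 7.40 as a dashed line. The points of the 6 neighbours past the floor lie within 1.02 of each other for each gene, against 4.38 for Sox2.

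The genes whose pattern over the 3 tumours lay nearest to that of Sox2 were Bex1, H2aj and Muc15. The measure was the Euclidean distance between levels after subtracting each gene's mean, over 6946 genes past the floor that are no members, and with 3 tumours many genes share any pattern. Bex1, a small adaptor gene expressed in neural tissue, had a distance of 0.48 and levels of 7.88, 6.09 and 10.56. The histone gene H2aj had a distance of 1.06 and levels of 9.69, 8.83 and 12.70. The mucin gene Muc15 had a distance of 1.26 and levels of 8.23, 7.47 and 10.34. Their order was that of Sox2, which the measure fixes.

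Markers of neural and neuroendocrine cells, where Sox2 is also active, were dim in every tumour. Of 10 such genes on the array, 0 were past the floor, and the highest intensity among them was 27, 100 and 41 in tumours 1, 2 and 3. The astrocyte filament gene Gfap, in the list of Schwann and neural crest markers and below the floor on average, had intensities of 26, 58 and 441. Gfap was thus brightest in tumour 3, as was Sox2, but tumour 2 was not its dimmest. It was singled out after its values were seen.

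Sox9 was highest in tumour 3 in both of its probe sets. Probe set 1451538_at had intensities of 154, 128 and 393 in tumours 1, 2 and 3. Tumours 1 and 2 lay close together and tumour 3 above both, at 7.71, 7.43 and 8.81, or 7.98 ± 0.73 (SD, n = 3). Tumour 3 was 2.15-fold above tumour 1 and 2.60-fold above tumour 2, while tumours 1 and 2 differed 1.21-fold. Probe set 1424950_at, below the floor on average, had intensities of 63, 45 and 226 and the same order, with tumour 3 3.02-fold above tumour 2. Both probe sets were listed with the same sequence entry, so they are not independent. The nearest patterns to that of Sox9 were those of the tubulin-modifying gene Ttll1 (distance 0.02), the membrane protein gene Tmem33 (0.03) and the prefoldin subunit gene Pfdn2 (0.03), each with a 2.55-fold to 2.58-fold range.

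Cartilage genes, several of which Sox9 is known to activate in cartilage, had another order than Sox9. Of 9 cartilage genes on the array, 4 were past the floor, and all 4 of these were at least 2-fold apart (24.8% of all genes past the floor). They were highest in tumour 2, as were 39.2% of all genes past the floor, and lowest in tumour 3, as were 44.2%. Their median range was 3.18 (log2) against 0.66 for all 6952 genes. The type II collagen gene Col2a1 had intensities of 287, 1271 and 83, which spanned 9.98-fold. The type IX collagen gene Col9a1 had 3104, 4727 and 1013, and the chondromodulin gene Cnmd had 355, 546 and 20. The matrix gene Comp, at 69, 5811 and 36, had the widest range in this list. Its mean passed the floor through tumour 2 alone, so its highest tumour was fixed by that filter. The count of 4 and the median range above include it. When the middle of the 3 levels had to reach the floor, 3 cartilage genes were at least 2-fold apart. Comp aside, tumour 2 had the least Sox9 and the most Col2a1, Col9a1 and Cnmd, while tumour 3 had the most Sox9 and the least of these transcripts. Acan, the aggrecan gene, was below the floor on average and also brightest in tumour 2, with intensities of 26, 336 and 43. The other 4, Matn1, Matn3, Col11a2 and Hapln1, had intensities of at most 67.

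**Figure D4:**
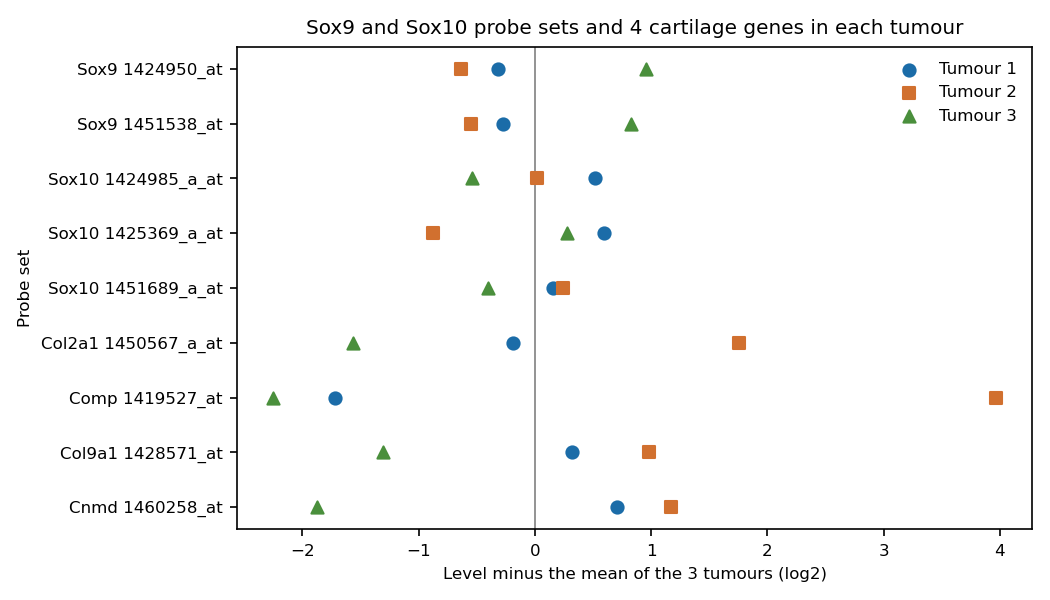
Level minus the mean of the 3 tumours (log2) for the Sox9 and Sox10 probe sets and for the 4 cartilage genes past the floor, with tumour 1 as circles, tumour 2 as squares and tumour 3 as triangles. Sox9 is highest in tumour 3 and lowest in tumour 2, whereas Col2a1, Comp, Col9a1 and Cnmd peak in tumour 2 and are lowest in tumour 3.

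Sox10 was past the floor in all 3 tumours with all 3 of its probe sets, which did not share an order. The brightest, 1451689_a_at, had intensities of 3439, 3534 and 2505 in tumours 1, 2 and 3. Tumours 1 and 2 were alike and tumour 3 was lower, at levels of 11.80, 11.88 and 11.23 (1.57-fold apart), or 11.64 ± 0.35 (SD, n = 3). Probe set 1424985_a_at had 1458, 1060 and 688. There tumour 3 was again lowest, 2.09-fold below tumour 1. Probe set 1425369_a_at had 508, 165 and 405. In it tumour 2 was lowest, 2.77-fold below tumour 1 and 2.22-fold below tumour 3. Sox10 was therefore lowest in tumour 3 by 2 probe sets and lowest in tumour 2 by 1. The orders of 1424985_a_at and 1425369_a_at held under each scaling and offset tried. For 1451689_a_at the highest tumour was tumour 1 in place of tumour 2 once array medians were subtracted.

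Genes of mammary progenitor and basal cells, where Sox10 is known to act, were mostly highest in tumour 2. Of the 20 genes of that list, 12 were past the floor, with 8 of the 12 highest in tumour 2 (39.2% of all genes past the floor) and 7 at their minimum in tumour 3 (44.2%). At least 2-fold differences were found in 5 of the 12 (24.8% of all genes past the floor had them), with a median range of 0.84 (log2). The widest ranges belonged to Col9a3, a type IX collagen gene, and to Mia, a secreted protein gene of cartilage and melanoma cells. Col9a3 levels were 10.56, 11.34 and 9.56, spanning 3.44-fold. Mia levels were 8.55, 9.17 and 7.70, spanning 2.79-fold. Cd14, which luminal progenitor cells and macrophages express, differed least, at 11.73, 11.79 and 11.58. The basal factor genes Trp63 and Snai2 had intensities of at most 31 and 50, and the myoepithelial keratin genes Krt5 and Krt14 were also below the floor on average. Krt14 was nevertheless above it in tumour 1, with intensities of 358, 59 and 50, and Krt5 had 81, 33 and 47, also highest in tumour 1.

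Schwann and neural crest markers, the other known setting of Sox10, were mostly dim. Of 11 such genes on the array, 3 were past the floor, and of these Erbb3 and Pmp22 are also made in epithelium. Erbb3, a receptor tyrosine kinase gene, was at 10.24, 10.90 and 10.24 in tumours 1, 2 and 3, and Pmp22 at 9.03, 10.46 and 9.38, a 2.69-fold range. The myelin gene Mbp, the other gene past the floor, differed least, at 8.18, 8.12 and 7.73. The intensities of the list summed to 2041, 3976 and 2772. Most of each sum came from Erbb3 (1116, 1819 and 1197) and Pmp22 (459, 1363 and 611). The crest factor gene Foxd3 had at most 17 and the radial glia gene Fabp7 at most 12, both near the bottom of the scale. S100b (20, 162 and 70) and Egr2 (63, 172 and 133) were below the floor on average and brightest in tumour 2. S100b was above the floor in tumour 2, and Egr2 in tumours 2 and 3. The part of such cells in the Sox10 signal was not tested.

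Sox4, which acts in progenitor cells of many tissues and downstream of TGF-beta, was past the floor with 5 of its 6 probe sets. The brightest, 1433575_at, had intensities of 3526, 4263 and 5603 in tumours 1, 2 and 3. Tumour 3 was highest and tumour 1 lowest, at levels of 11.83, 12.16 and 12.36, a 1.44-fold range, or 12.12 ± 0.27 (SD, n = 3). Probe set 1419156_at was nearly equal in the tumours, with 927, 984 and 968, a 1.02-fold range. Probe set 1419155_a_at had 1316, 1254 and 1152, a 1.21-fold range. By contrast, 1419157_at had 629, 304 and 968. In it tumour 2 was 2.93-fold below tumour 3 and 2.04-fold below tumour 1. Probe set 1449370_at had yet another order, with 905, 575 and 473, tumour 3 being 1.87-fold below tumour 1. The remaining 1455867_at was below the floor with 40, 91 and 33.

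The 5 Sox4 probe sets past the floor thus named each of the 3 tumours as highest. Of the 6, 4 were listed under 1 sequence entry, and they included both the probe set with the narrowest and the one with the widest range. Such disagreement was common on these arrays. Of 74 genes with at least 5 probe sets past the floor, 22 (29.7%) had probe sets that were highest in each of the 3 tumours. Of 741 genes with at least 3 such probe sets, 506 (68.3%) were highest in more than 1 tumour, as Sox10 was. For 1419156_at the order of the tumours turned with the scaling, within a range of at most 0.08 (log2).

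Sox11, a relative of Sox4 known from developing neurons, was near the bottom of the scale. Its probe set 1436790_a_at had intensities of 5, 9 and 10 in tumours 1, 2 and 3. No tumour stood out and the range was 0.12 (log2).

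Among the other Sox genes, 12 of 14 had a probe set of their own and 3 were past the floor. All 3 differed at least 2-fold (24.8% of all genes past the floor), each with another tumour highest, by 2.13-fold to 2.38-fold. None of the 3 reached 2-fold with an offset of 100 or without tumour 3. Sox18, a factor of blood and lymph vessels, was at 7.67, 8.21 and 6.96 in tumours 1, 2 and 3. Of 9 endothelial genes, 4 were past the floor. Like Sox18, all 4 were highest in tumour 2 (39.2% of all genes past the floor) and lowest in tumour 3 (44.2%). Of these 4, 2 were at least 2-fold apart (24.8% of all genes past the floor), and with an offset of 100 the 2 became 1. They were the junction genes Cdh5, at 7.78, 7.98 and 6.61, and Esam, at 7.75, 8.47 and 7.29. Eng differed least, at 8.34, 8.34 and 7.92, with tumours 1 and 2 nearly equal. Sox5, a partner of Sox9 in cartilage, was at 7.05, 7.43 and 8.17, highest in tumour 3 as Sox9 was. Sox12, of the group of Sox4 and Sox11, differed least, at 8.25, 7.98 and 7.16. Sox6, Sox13 and Sox21, among others, were below the floor.

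Id2, which is known to be needed for alveolar growth of the mammary gland, had 2 of its 3 probe sets past the floor in every tumour. Probe set 1435176_a_at had intensities of 856, 976 and 2275 in tumours 1, 2 and 3. Tumours 1 and 2 were close and tumour 3 stood above both, at levels of 9.86, 9.99 and 11.11, or 10.32 ± 0.68 (SD, n = 3). Tumour 3 was 2.37-fold above tumour 1 and 2.17-fold above tumour 2. Probe set 1422537_a_at had 829, 735 and 1156, again with tumour 3 highest, but its range was 1.55-fold. The remaining 1453596_at was below the floor with 83, 73 and 96. The nearest patterns to that of Id2 were those of Atpif1, which encodes an inhibitor of the mitochondrial ATP synthase (distance 0.01), the origin recognition gene Orc1 (0.03) and the phosphorylase kinase gene Phkb (0.04).

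Id1 differed less. Its probe set 1425895_a_at had intensities of 195, 257 and 289 in tumours 1, 2 and 3. Tumour 3 was highest by a small margin, with levels of 7.97, 8.20 and 8.43, a 1.38-fold range, or 8.20 ± 0.23 (SD, n = 3). Id3, often induced together with Id1, was just below the floor, with intensities of 95, 85 and 155. It reached the floor only in tumour 3, which was 1.58-fold above tumour 2. Id4, known from basal mammary cells, was dim in all 3 of its probe sets, with intensities of at most 63. Its probe set 1423259_at had 12, 28 and 63, and its other probe sets had ranges of 0.25 and 0.69 (log2).

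All 8 Id probe sets were highest in tumour 3, as were 36.9% of the 20380 probe sets with 1 gene when no floor is set. Tumour 3 stayed highest in all 8 under the scalings and offsets tried. Their lowest tumour was not shared, being tumour 2 in 5 of them and tumour 1 in 3. The 8 come from 4 genes, 5 of them lie below the floor, and 1 of them differed at least 2-fold. The Sox probe sets shared no highest tumour, with 6 of 13 highest in tumour 3, 4 in tumour 1 and 3 in tumour 2. Most adipocyte genes were also bright in tumour 3. Of 7 on the array 5 were past the floor and 4 of these differed at least 2-fold (24.8% of all genes past the floor), all 4 with tumour 3 highest. The intensities of the 7 summed to 2146, 1970 and 7794 in tumours 1, 2 and 3. The lipid carrier gene Fabp4 had intensities of 424, 304 and 2837, and the carbonic anhydrase gene Car3 had 319, 550 and 2539. The adipokine gene Adipoq had 66, 94 and 678. Its mean passed the floor through tumour 3 alone, so its highest tumour was fixed by that filter. When the middle of the 3 levels had to reach the floor, 3 adipocyte genes differed at least 2-fold. The fifth gene past the floor, the adipocyte and liver factor gene Cebpa, ran the other way, with 1008, 731 and 506. That list was added after earlier values were known, and the part of fat cells in the Id and Sox values of tumour 3 was not tested. Lymphocyte genes, another known site of Id2 and Id3, had 0 of 8 genes past the floor. Their summed intensity, made up of dim signals only, was lowest in tumour 3 (240, 358 and 130). The summed intensity of endothelial genes, a further site of Id1 and Id3, was also lowest in tumour 3 (1067, 1574 and 761). Of these 9 genes, 5 were below the floor. Among those 5, Pecam1 was highest in tumour 3 (71, 64 and 87) and Kdr lowest in tumour 1 (57, 82 and 75). The other endothelial genes were lowest in tumour 3. The part of lymphocytes and of endothelial cells in the Id values was not tested either.

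The E proteins, with which Id proteins pair, were past the floor in all 3 cases and less than 2-fold apart. Tcf3 levels were 9.89, 9.46 and 8.99 in tumours 1, 2 and 3 and spanned 1.86-fold, so tumour 3 had the least Tcf3 and the most Id2. Tcf4 was at 8.62, 8.71 and 9.07. Tcf12 was at 9.47, 9.78 and 9.85, a 1.30-fold range. Of the 17 E protein and tissue helix-loop-helix genes on the array, 4 were past the floor. Of these 4, 0 differed at least 2-fold (24.8% of all genes past the floor did), and their median range was 0.68 (log2). The other gene past the floor was Bhlhe40, a repressor gene of the circadian and hypoxia responses, at 10.22, 11.11 and 11.03. The mesenchymal factor gene Twist1 was below the floor on average but brighter in tumour 3, with intensities of 29, 34 and 206, and was singled out after its values were seen.

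Genes of BMP signalling, the known input to the Id genes, did not share a highest tumour. Of 20 on the array 9 were past the floor, and 2 of these differed at least 2-fold (24.8% of all genes past the floor). The median range of the 9 was 0.62 (log2). Of the 9, 6 were highest in tumour 2, as were 39.2% of all genes past the floor. Another 2 were highest in tumour 3, as were 36.5% of all probe sets past the floor. The ligand genes Bmp2, Bmp4, Bmp6 and Bmp7 were below the floor, with intensities of at most 63. The receptor gene Bmpr2 was at 7.47, 8.02 and 8.41 in tumours 1, 2 and 3, highest in tumour 3 as the Id genes were, and Acvr1 had the narrowest range of the list, at 8.77, 8.99 and 8.69. The signal transducer gene Smad1 was at 9.71, 9.94 and 9.63. The inhibitory gene Smad7 had the widest range, 2.51-fold, at 8.35, 9.06 and 7.73. The pseudoreceptor gene Bambi followed with 8.67, 9.61 and 8.52. Of the 9, 5 were lowest in tumour 3, as were 44.2% of all genes past the floor. These were Acvr1, Smad1, Smad6, Smad7 and Bambi. The inhibitory gene Smad6 was at 7.86, 7.58 and 7.06, below the floor in tumour 3. Bambi differed only 1.11-fold between tumours 1 and 3. The part of BMP signalling in the Id values was not tested.

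Leaving out any 1 tumour lowered both the count of members and the share of all probe sets past the floor that were at least 2-fold apart. Lower values largely follow from the measure, since a range over fewer tumours can hardly be wider. With tumour 3 left out, 2 of 12 member probe sets past the floor were at least 2-fold apart, against 7.98% of all probe sets. They were those of Sox4 (1419157_at) and Sox10 (1425369_a_at), and Sox2, whose tumours 1 and 2 differed by 2.35 (log2) there, was below the floor. Without tumour 1 the count was 5 of 13, against 18.3%, and without tumour 2 it was 5 of 15, against 14.7%. Whether the array or the RNA of tumour 3 had a part in these values was not tested.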

How the data were processed

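Total RNA of 3 tumours was hybridised as biotinylated cRNA, 1 array each, per the labels' protocols. For each probe set and tumour the authors deposited 1 intensity, as a whole number on a linear scale inferred from the values. How the authors summarised, background-corrected or scaled these intensities is not given in the sources used here. From the 22690 rows, 64 controls were removed, the arrays were quantile normalized and 50 was added before log2. Genes were named through the platform annotation, updated by gene ID through the RefSeq table of GRCm38.p6, and 20380 probe sets had 1 gene.

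The 3 samples form 1 group numbered in accession order, so there was no test between groups, and the number of arrays limits the precision. The members and the gene lists were chosen with earlier results of these data known, and the adipocyte list was added last. Lists used each gene's brightest probe set. All 9 members were named. In the other Sox, E protein, BMP and mammary progenitor lists the 2 widest ranges and the narrowest were named. Genes of the cell type lists, and others named, were picked with their values known. Up to 3 members at least 2-fold apart in their brightest probe set received 3 nearest patterns each. Alternatives were no normalization, array medians subtracted, offsets of 16 and 100, other low-signal filters, suffixed probe sets left out, means of probe sets and leaving out each tumour. Python 3.11.15, numpy 2.4.6, pandas 2.3.3 and matplotlib 3.10.9 were used.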

Additional observations from a re-analysis of the deposited data

How the results depend on the processing

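The count of 6 member probe sets at least 2-fold apart stayed at 6 with no normalization, with array medians subtracted, with offsets of 16 and 100, and when the middle tumour had to reach the floor, an alternative chosen after seeing the data. It was 7 with no low-signal filter, through the second Sox9 probe set. It was 3 with the filter at the 75th percentile, where 9 of the 21 probe sets remained, and 3 without the suffixed probe sets, where 6 remained, since both settings leave fewer probe sets. It ranged from 2 to 5 when 1 tumour was left out, lowest without tumour 3, and the share of all probe sets past the floor was lowest there too (18.3%, 14.7% and 7.98% without tumours 1, 2 and 3, against 26.8% with all). Among 63 signed differences between pairs of tumours, none of those that reached 2-fold turned its sign under the 4 scalings and offsets. Of the 11 gene lists, 5 had counts that moved by over 1.5 times without tumour 3, 6 with the filter at the 75th percentile, 4 with an offset of 100 and 0 with no normalization. No paired analysis was possible because the samples form 1 group. Signal near background limits Sox11, Id3 and Id4, whose differences lie in the dim part of the scale.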
